A study of Homo sapiens with 6 samples.

Results

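The epidermal growth factor receptor (EGFR) family genes described here are the 9 genes EGFR, ERBB2, ERBB3, AREG, EREG, HBEGF, TGFA, BTC and ERRFI1, taken by gene symbol from a table of 35474 genes. All 9 had a row in the count table, and all 9 had enough reads to be tested among 20776 genes. The cells were A549, an established human lung adenocarcinoma line, and RNA was taken 48 h after transfection with an siRNA against BAP18 (siBAP18, 3 libraries) or with an siRNA that targets no gene (siCtrl, 3 libraries). BAP18 is a chromatin-associated protein encoded by C17orf49, and the comparison asks which transcripts changed when it was depleted. Which of the study's 3 siBAP18 duplexes was transfected for sequencing is not given in the sources used here, and both groups went through transfection, so the control carries that handling as well.

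EGFR, ERBB2 and ERBB3 are receptors that sit in the plasma membrane and signal as pairs. AREG (amphiregulin), EREG (epiregulin), HBEGF (heparin-binding EGF-like growth factor), TGFA (transforming growth factor alpha) and BTC (betacellulin) are made as membrane-anchored precursors, and the soluble ligands are cut free by ADAM proteases. ERBB2 has no known ligand and acts as a partner, ERBB3 has little kinase activity of its own and passes signal mainly to PI3K, and ERRFI1 (MIG6) binds active receptors and blocks their kinases. In lung adenocarcinoma the family is known as a driver of growth through the RAS to ERK and PI3K to AKT routes.

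The ligand genes AREG, EREG and BTC lie together on chromosome 4 with EPGN (epigen), the remaining ligand of that cluster. In the coordinates of the count table (GRCh38), EPGN spans 74308473 to 74315307 and EREG spans 74365143 to 74388751, both on the plus strand. AREG follows at 74445134 to 74455009 on the plus strand, and BTC lies at 74744759 to 74794686 on the minus strand. The gap between EREG and AREG was 56.4 kb, with no other listed gene wholly inside it. HBEGF lies on chromosome 5 (140332843 to 140346631, minus strand), TGFA on chromosome 2 (70447280 to 70554193, minus strand), EGFR on chromosome 7 (55019021 to 55211628, plus strand), ERBB2 on chromosome 17 (39687914 to 39730426, plus strand) and ERRFI1 on chromosome 1 (8004404 to 8026308, minus strand). ERBB3 spans 56079857 to 56103505 on the plus strand of chromosome 12 in the table, whereas GENCODE 29 starts the gene at 56076799. GENCODE 29 gave the same span as the table for the other 8 genes and classed all 9 as protein coding.

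AREG and HBEGF are the ligands whose transcripts rose, and EREG is the cluster neighbour of AREG that did not pass the test. The 250 bases before the RefSeq start of each of these 3 genes are therefore shown. They are RefSeq promoter sequences of build GRCh38.p14, written 5′ to 3′ on the gene's strand, at chr4:74444886-74445135 for AREG (plus), chr4:74364895-74365144 for EREG (plus) and chr5:140346604-140346853 for HBEGF (minus). The RefSeq starts differ from those given above, and all 3 windows run into the gene spans given there. Capitals mark matches to a cyclic AMP response element (CRE, TGACGTCA) or a TATA box (TATAAA).
AREG: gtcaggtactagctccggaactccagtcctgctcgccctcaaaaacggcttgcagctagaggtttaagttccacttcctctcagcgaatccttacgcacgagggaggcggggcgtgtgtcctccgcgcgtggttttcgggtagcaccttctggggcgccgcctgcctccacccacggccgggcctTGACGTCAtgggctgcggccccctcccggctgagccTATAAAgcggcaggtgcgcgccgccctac
EREG: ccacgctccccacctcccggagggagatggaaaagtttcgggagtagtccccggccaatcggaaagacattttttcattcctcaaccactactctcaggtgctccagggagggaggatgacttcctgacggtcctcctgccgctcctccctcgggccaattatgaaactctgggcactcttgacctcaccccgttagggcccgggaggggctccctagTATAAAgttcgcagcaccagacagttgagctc
HBEGF: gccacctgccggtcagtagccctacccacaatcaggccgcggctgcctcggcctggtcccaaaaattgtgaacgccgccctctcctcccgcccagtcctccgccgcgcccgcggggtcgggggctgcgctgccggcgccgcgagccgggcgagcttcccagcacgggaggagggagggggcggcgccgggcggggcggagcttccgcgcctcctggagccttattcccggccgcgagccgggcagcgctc

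AREG held the CRE word 65 bases and the TATA word 29 bases before its start, counted to the first base of each word. EREG held the TATA word 32 bases before its start and no CRE word, and HBEGF held none of the words searched. The bases before HBEGF were 76.4% G or C, against 65.2% for AREG and 58.0% for EREG. Among 35116 RefSeq promoters cut to the same window and read on both strands, 1.65% held the CRE word and 10.7% the TATA word. The other words searched were the AP-1 word TGANTCA (6.57% of promoters), the EGR word GCGNGGGCG (8.41%), the E-box CACGTG (6.34%) and the TCF word CTTTGAT (2.26%). Among the remaining genes, the AP-1 word was found before ERBB2 and before the second of the 2 listed EGFR starts, which also held the TATA word. A match is only a run of letters in this window, and these libraries hold no measurement of binding. RefSeq promoters were matched for 8 of the 9 genes, with no entry for ERBB3.

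The libraries held 42094524 to 56548620 counted reads, the fewest in siBAP18 replicate 3. Mitochondrial genes took 6.86 to 7.43% of the reads in siCtrl and 5.27 to 6.14% in siBAP18. C17orf49 fell from 15.1 ± 1.09 to 2.41 ± 0.235 CPM (counts scaled by library size, SD, n = 3 and 3), a log2 fold change of -2.65, with all 3 siBAP18 libraries below the controls. It shares 44.3% of its exon bases with the read-through gene RNASEK-C17orf49, and 55.8% with MIR497HG on the opposite strand, and the counter's handling of strand and of shared stretches is not given in the sources used here. RNASEK-C17orf49 had 1941 to 2132 reads in siCtrl and 1577 to 1931 in siBAP18, and MIR497HG had 389 to 417 and 69 to 72. All 6 epithelial markers were present, led by KRT8 at a mean of 13436 CPM in siCtrl, and at an adjusted p below 0.05 (edgeR) 4 of them were lower and 1 was higher. CDH1 (E-cadherin) fell by 1.32 on the log2 scale, EPCAM by 0.41, KRT8 by 0.37 and KRT18 by 0.24, KRT7 rose by 0.43, and KRT19 was at 0.15 and did not pass. Enough reads to be tested were found for 2 of the 3 immune markers, 2 of the 4 fibroblast markers and 2 of the 4 endothelial markers in the table. The immune markers summed to 29.4 to 31.6 RPKM in siCtrl and 54.6 to 70.3 RPKM in siBAP18, nearly all from CD68, a lysosomal protein, which rose from 66.2 to 136 CPM. The fibroblast markers summed to 0.922 to 1.40 RPKM and the endothelial markers to 0.136 to 0.183 RPKM in any library. PTPRC, CD3E and DCN were not among the 35474 listed genes, so they could not be tested. The part of these marker levels in the results on the EGFR family was not tested.

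BAP18 knockdown was followed by a rise of EGFR, AREG and HBEGF and a fall of ERBB3, whereas ERBB2, EREG, TGFA, BTC and ERRFI1 did not pass the test. The changes were modest. The largest rise was that of HBEGF, 1.73-fold, and ERBB3 was left at 0.568 of its control level. At an adjusted p below 0.05 (edgeR quasi-likelihood test, Benjamini-Hochberg adjustment over all 20776 genes), 3 of the 9 genes were higher, beside 24.5% of all tested genes, and 1 was lower, beside 25.1%. With the study's added requirement of a log2 fold change beyond 1 in either direction, 0 of the 9 passed, beside 8.46% of all genes. At an unadjusted p below 0.05 the count was 4 of the 9, beside 54.9% of all genes, again with 0 beyond a log2 fold change of 1. The DESeq2 Wald test gave 4 and 0 at the adjusted threshold, where it called 35.7% of the 25845 genes to which it gave an adjusted p. The median log2 fold change of the 9 genes was 0.11, beside 0.00102 over all tested genes. The CPM ranges of the 2 groups did not overlap for 4 of the 9, beside 56.6% of all genes.

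**Figure D1:**
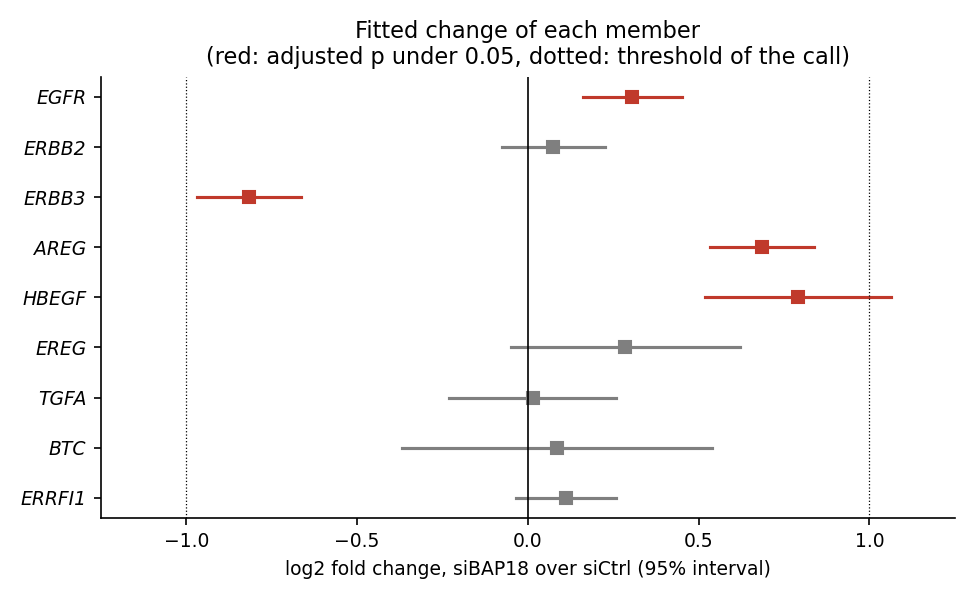
Fitted log2 fold change (siBAP18 over siCtrl, x axis) of each of the 9 genes (y axis), with squares for the estimate and lines for its 95% interval over 3 against 3 libraries. The 4 genes in red passed an adjusted p of 0.05, all 4 estimates lie inside the dotted lines at -1 and 1, and only the interval of HBEGF crosses one of them, reaching 1.06.

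Among the receptors, EGFR was nearly identical across the controls and higher after knockdown. Its values were 74.2, 74.4 and 74.5 CPM in siCtrl and 95.5, 97.3 and 82.7 CPM in siBAP18 replicates 1 to 3. All 3 knockdown libraries lay above all 3 controls, and replicate 3 was the nearest to them. The log2 fold change was 0.31 (SE 0.0703, 95% interval 0.16 to 0.45, adjusted p = 0.000762 by edgeR), a 1.24-fold difference. The coefficient of variation was 0.234% in siCtrl and 8.68% in siBAP18. EGFR-AS1, an antisense gene with 55 to 100 reads per library, shares 186 bases with EGFR exons, 1.49% of them, which is small beside the 3353 to 5685 reads of EGFR.

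ERBB3, the receptor that couples to PI3K, fell. Its values were 28.0, 29.2 and 30.9 CPM in siCtrl and 16.4, 16.7 and 16.996 CPM in siBAP18. The groups were far apart relative to their spread (SD 1.45 and 0.311, n = 3 each). The log2 fold change was -0.82 (SE 0.0740, 95% interval -0.97 to -0.66, adjusted p = 1.32e-09 by edgeR). Only 31 bases, 0.358% of its exon bases, are shared with another listed gene, which had an abundant transcript and a log2 fold change of 0.07.

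ERBB2, the receptor without a ligand, was the most abundant of the 3 per length and did not pass the test. It was at 105.6, 99.98 and 103.4 CPM in siCtrl and at 109.4, 96.7 and 119.6 CPM in siBAP18, so the knockdown libraries lay on both sides of the controls. The log2 fold change was 0.07 (SE 0.0732, 95% interval -0.08 to 0.23, adjusted p = 0.423 by edgeR). Without siBAP18 replicate 2, the lowest of the 6, it was 0.15 with an adjusted p of 0.0452. Exons of MIEN1 and PGAP3 on the opposite strand cover 5.53% and 1.88% of the ERBB2 exon bases.

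Because these 3 receptors are compared with one another, their levels were taken per length as RPKM, in which the read count is divided by the exon length and by the library's total. Their sum was 19.3 ± 0.103 RPKM in siCtrl and 19.8 ± 0.441 RPKM in siBAP18 (SD, n = 3 each), with each control below each knockdown library by a narrow margin. ERBB3 made up 17.6% ± 0.812 of that sum in siCtrl and 9.74% ± 0.350 in siBAP18. EGFR went from a share of 30.8% ± 0.442 to 37.2% ± 4.05, and ERBB2 stood at 51.7% ± 0.970 and 53.1% ± 4.19. The EGFR to ERBB3 ratio was 1.83, 1.76 and 1.67 in the control libraries and 4.04, 4.04 and 3.37 in the knockdown libraries, with no overlap. The ERBB2 to ERBB3 ratio was 2.95 ± 0.192 in siCtrl and 5.46 ± 0.534 in siBAP18.

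Among the ligands, AREG was by far the most abundant per length and rose. It was at 21.7, 21.8 and 19.4 CPM in siCtrl and at 34.3, 32.4 and 34.6 CPM in siBAP18, and the groups did not overlap. The log2 fold change was 0.69 (SE 0.0738, 95% interval 0.53 to 0.84, adjusted p = 2.47e-08 by edgeR), a 1.61-fold rise. The CRE and the TATA word both precede its start, whereas HBEGF, which also rose, held none of the words searched. A link between the words and the changes was not tested.

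HBEGF, which also serves as the diphtheria toxin receptor, rose from a lower level. It was at 3.22, 2.92 and 2.78 CPM in siCtrl and at 5.72, 4.67 and 5.08 CPM in siBAP18, again without overlap. Its log2 fold change was 0.79 (SE 0.132, 95% interval 0.52 to 1.06, adjusted p = 1.88e-05 by edgeR). The value rests on 130 to 171 reads per control library and 206 to 311 per knockdown library.

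EREG, the cluster neighbour of AREG, did not pass the test. It was at 2.67, 3.18 and 3.81 CPM in siCtrl and at 4.41, 4.33 and 2.89 CPM in siBAP18. Replicates 1 and 2 of siBAP18 lay above every control, and replicate 3 lay among them. The log2 fold change was 0.29 (SE 0.162, 95% interval -0.05 to 0.62, adjusted p = 0.150 by edgeR). Without siBAP18 replicate 3 it was 0.45 with an adjusted p of 0.0114, so this 1 library decides the call. The AREG to EREG ratio in RPKM was 17.7 to 28.2 in siCtrl and 26.0 to 41.5 in siBAP18, and these ranges overlap.

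TGFA and BTC showed no difference that passed the test. TGFA was at 7.18, 9.16 and 7.40 CPM in siCtrl and at 7.50, 9.42 and 6.91 CPM in siBAP18. Its log2 fold change was 0.01 (SE 0.119, 95% interval -0.23 to 0.26, adjusted p = 0.933 by edgeR), and its sign turned with the filter and with the library left out. BTC was the lowest of the ligands, at 1.05, 1.23 and 1.63 CPM in siCtrl and at 1.53, 1.35 and 1.23 CPM in siBAP18, from 50 to 83 reads per library. Its log2 fold change was 0.09 (SE 0.220, 95% interval -0.37 to 0.54, adjusted p = 0.776 by edgeR). The BTC interval includes a change of the size seen for EGFR.

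EPGN, the remaining gene of the cluster, was barely detected, with 0, 0 and 1 reads in siCtrl and 0, 2 and 0 reads in siBAP18. It was not tested, and no fold is given.

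Summed over the 5 ligands, RPKM was 16.4, 17.2 and 15.3 in siCtrl and 25.7, 25.2 and 24.1 in siBAP18. Every knockdown library lay above every control, and AREG supplied most of the sum, 77.9% ± 1.69 in siCtrl and 82.1% ± 1.64 in siBAP18. The TGFA share went from 9.75% ± 1.04 to 6.43% ± 1.19 (SD, n = 3 each), while its own level was 1.59 and 1.61 RPKM. HBEGF held 6.04% ± 0.388 and 6.84% ± 0.542. The ratio of summed ligand to summed receptor RPKM was 0.846 ± 0.0531 in siCtrl and 1.26 ± 0.0197 in siBAP18, below 1 in each control and above 1 in each knockdown library. The lengths used were all listed exon bases of each gene, 1648 for AREG and 10321 for ERBB2. Whether the ratio lies below or above 1 depends on that choice, and other lengths were not tried.

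**Figure D2:**
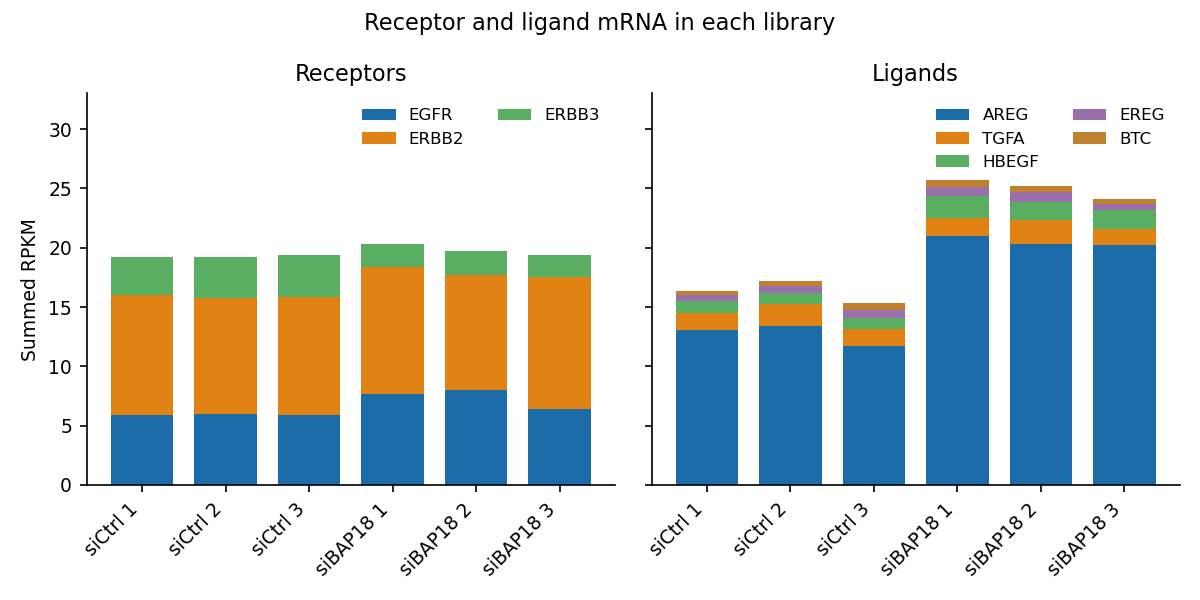
Summed RPKM (y axis, linear from 0) of the 3 receptors (left) and the 5 ligands (right) in each of the 6 libraries (x axis), stacked by gene. The receptor bars stand between 19.2 and 20.3 RPKM with a thinner ERBB3 segment in siBAP18, and the ligand bars go from 15.3 to 17.2 RPKM in siCtrl to 24.1 to 25.7 RPKM in siBAP18, mostly AREG.

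ERRFI1, the feedback inhibitor of the receptors, had the highest level of the 9 genes per length and did not pass the test. It was at 103.5, 110.3 and 105.2 CPM in siCtrl and at 119.0, 121.8 and 103.6 CPM in siBAP18. Replicates 1 and 2 of siBAP18 lay above the controls and replicate 3 lay near the bottom of their range. The log2 fold change was 0.11 (SE 0.0704, 95% interval -0.03 to 0.26, adjusted p = 0.199 by edgeR). Without siBAP18 replicate 3 it was 0.18 with an adjusted p of 0.00569. In CPM, siBAP18 replicate 3 was the lowest of its group for EGFR, EREG, TGFA, BTC and ERRFI1 and the highest for ERBB2, ERBB3 and AREG.

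In siCtrl the order of RPKM levels was ERRFI1 (25.4 ± 1.12), AREG (12.7 ± 0.884), ERBB2 (9.96 ± 0.179), EGFR (5.93 ± 0.0688), ERBB3 (3.38 ± 0.169), TGFA (1.59 ± 0.236), HBEGF (0.983 ± 0.0708), EREG (0.562 ± 0.0991) and BTC (0.461 ± 0.103), each as mean ± SD of 3 libraries. Neighbours in this order had separate ranges except EREG and BTC. The order between genes also depends on the exon lengths used. In siBAP18 the top 4 places were unchanged, with ERRFI1 at 27.5 ± 3.26, AREG at 20.5 ± 0.400, ERBB2 at 10.5 ± 0.756 and EGFR at 7.37 ± 0.881. ERBB3 (1.93 ± 0.0532), HBEGF (1.71 ± 0.172) and TGFA (1.61 ± 0.318) then had overlapping ranges, as did EREG (0.682 ± 0.170) and BTC (0.488 ± 0.0624).

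**Figure D3:**
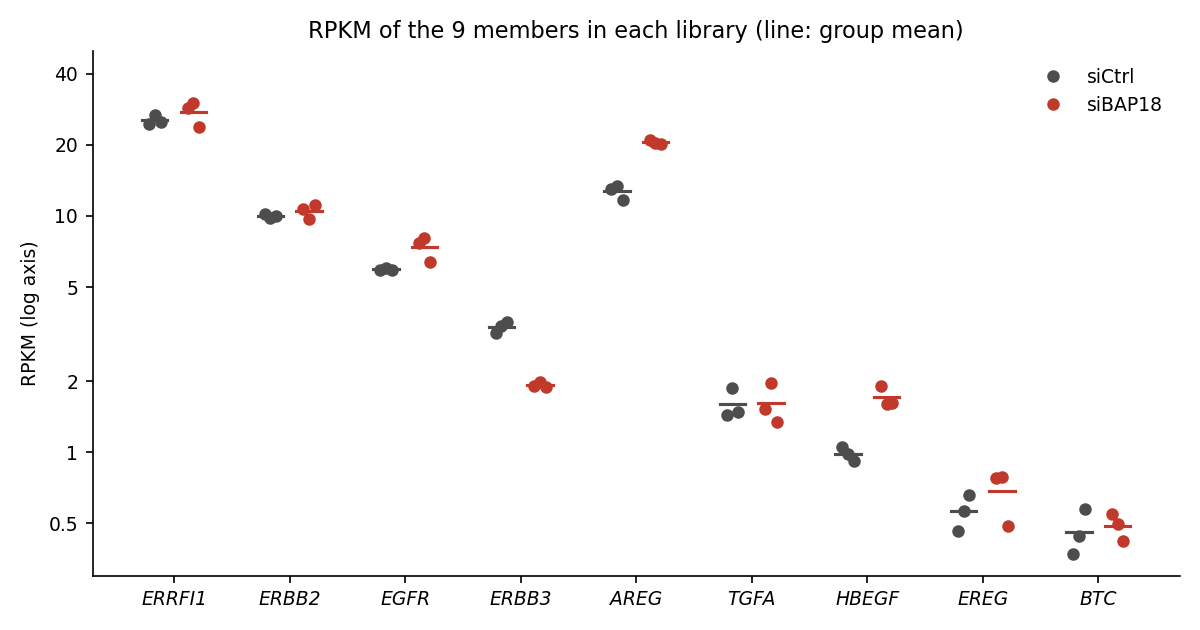
RPKM on a log axis (y) of each of the 9 genes (x axis) in the 3 siCtrl libraries (grey points) and the 3 siBAP18 libraries (red points), with a line at each group mean. AREG and HBEGF rise clear of their controls and ERBB3 falls from 3.38 to 1.93 RPKM, into the range of HBEGF and TGFA.

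The guide strands of the siRNAs could also pair with messages other than their target, so the sequences matching bases 2 to 8 of each guide were searched in the 3′ UTRs of the GENCODE 29 protein-coding transcripts. The words were AATCACA for siBAP18#1 (in 15.5% of 13735 tested genes), AAGATTC for siBAP18#2 (12.5%), ACTCAAC for siBAP18#3 (7.79%) and TGTCACG for siCtrl (3.37%). EGFR held 1 match to the siBAP18#2 word, in 2 of its 6 transcripts, and EREG held 2 matches to the siBAP18#1 word. The other 7 genes, ERBB3 included, held none of the 4 words. The matches are at chr7:55207009-55207037 (EGFR), chr4:74385703-74385731 (EREG, first) and chr4:74386365-74386393 (EREG, second) of GRCh38, all on the plus strand, with the matching word in capitals.
EGFR: tggaagattggAAGATTCagctagttagg
EREG first: ttctaacattaAATCACAgcccaaaattt
EREG second: taccctggtgcAATCACAcgactgtcatc

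EGFR rose and EREG did not pass the test, as given above. A match is a description of letters and not evidence of pairing.

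Of the rest of the family, the ligands with enough reads to be tested were NRG4, EGF, NRG1 and NRG2, of which 2 fell and none rose. NRG4, a ligand of ERBB4, fell from 6.55 ± 0.289 to 4.15 ± 0.696 CPM (log2 fold change -0.64, SE 0.125, adjusted p = 0.000115 by edgeR). EGF fell from 1.82 ± 0.0919 to 1.05 ± 0.0704 CPM (log2 fold change -0.79, SE 0.201, adjusted p = 0.00206 by edgeR). NRG1 and NRG2, ligands of ERBB3, did not pass (adjusted p 0.122 and 0.0654 by edgeR). ERBB4, the remaining receptor, had 4, 4 and 0 reads in siCtrl and 4, 10 and 10 in siBAP18 and was not tested.

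The genes that free the ligands from the membrane moved in both directions. Of 11 proteases, rhomboid proteins, partners and inhibitors, all tested, 5 were higher and 5 were lower at an adjusted p below 0.05. None went beyond a log2 fold change of 1. ADAM10, the main sheddase of EGF and BTC, fell from 75.0 ± 2.47 to 42.5 ± 3.02 CPM (log2 fold change -0.82, SE 0.0703, adjusted p = 5.13e-10 by edgeR). FRMD8, which keeps the iRhom and ADAM17 complex stable, fell from 20.0 ± 1.66 to 10.3 ± 0.397 CPM (log2 fold change -0.96, SE 0.0852, adjusted p = 8.90e-10 by edgeR). The median log2 fold change of the list was 0.27, while the summed RPKM of its genes went from 82.2 ± 1.14 to 65.9 ± 3.76, so the median and the sum pointed in opposite directions.

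Among 20 adaptors and effectors recruited to active receptors, 3 were higher and 9 were lower, with a median log2 fold change of -0.19. GAB2, a docking protein for PI3K and SHP2, rose from 27.4 ± 0.748 to 71.4 ± 8.68 CPM (log2 fold change 1.38, SE 0.0794, adjusted p = 3.28e-13 by edgeR). PIK3R3, a regulatory subunit of PI3K, fell from 8.06 ± 0.242 to 3.49 ± 0.154 CPM (log2 fold change -1.21, SE 0.112, adjusted p = 1.89e-09 by edgeR). These were the only members of the list past both thresholds.

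Of 19 genes of the RAS to ERK and AKT routes, 5 were higher and 8 were lower, none past both thresholds, with a median log2 fold change of -0.10. HRAS, a RAS GTPase, rose from 79.2 ± 2.30 to 131 ± 13.9 CPM (log2 fold change 0.72, adjusted p = 1.03e-08 by edgeR). Of 24 tested genes for receptor turnover and damping, of 25 listed, 7 were higher and 7 were lower, with a median of -0.07. SOCS2, a suppressor of cytokine signalling, was the only one past both thresholds, going from 3.75 ± 0.273 to 9.80 ± 1.46 CPM (log2 fold change 1.39, adjusted p = 5.34e-10 by edgeR).

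Of 16 genes known to respond to ERK, 6 were higher and 5 were lower, with a median log2 fold change of 0.11, so the list had no common direction. FOSL1, an AP-1 subunit, stood apart at 7.67, 7.70 and 7.17 CPM in siCtrl and 106, 89.4 and 97.4 CPM in siBAP18 (log2 fold change 3.70, SE 0.0841, adjusted p = 1.63e-21 by edgeR). PHLDA1 rose from 23.2 ± 0.569 to 53.2 ± 3.65 CPM (log2 fold change 1.20, SE 0.0725, adjusted p = 8.18e-13 by edgeR). Of the 5 lower genes, none past both thresholds, CCND1 (cyclin D1) had the smallest adjusted p. It fell from 378 ± 15.7 to 218 ± 16.8 CPM (log2 fold change -0.79, SE 0.0701, adjusted p = 8.03e-10 by edgeR). Beside all of these lists stand the shares over all genes given above.

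**Figure D4:**
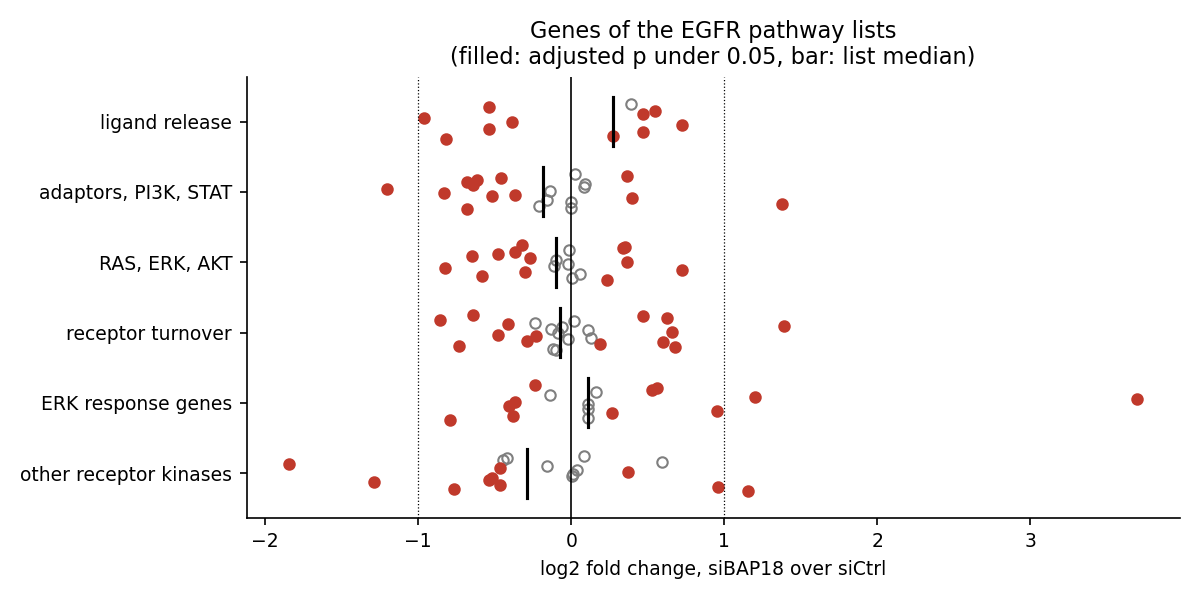
Log2 fold change (x axis) of every tested gene of the 5 EGFR pathway lists and of the other receptor tyrosine kinases (y axis), with filled points for an adjusted p under 0.05, a bar at each list median and dotted lines at -1 and 1. Genes of each list lie on both sides of 0, and FOSL1 at 3.70 is the farthest point.

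These are levels of RNA in whole cultures, so fewer cells with a transcript and less RNA per cell cannot be told apart, and ligand release and receptor activity were not measured.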

How the data were processed

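Poly(A)-selected RNA of A549 cells was sequenced with a strand-marking kit, 3 libraries per group. The authors deposited raw counts per gene and RPKM values; the aligner, the counter, its use of strand and the test are not given in the sources used here. The deposited RPKM were those counts divided by the listed exon length and the library's total of counted reads. The coordinates of the table are of GRCh38 (hg38 in the submitters' processing notes, which also list GRCm38).

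Counts were filtered with filterByExpr, scaled by TMM and tested with edgeR 4.0.16 (R 4.3.3, quasi-likelihood, both groups, no covariate) with Benjamini-Hochberg adjustment. CPM values use the TMM-scaled totals. SE is the absolute log2 fold change over the square root of F. Levels of different genes were compared in RPKM only. On simulated counts for this comparison with 20776 genes, 199 of 200 changed genes were called and 0 others. Recovery and false calls were not tested separately for changes as small as those of the EGFR family genes. The simulation is therefore no check on the calls of EGFR, AREG, HBEGF and ERBB3. Alternatives used DESeq2 1.42.0 and limma 3.58.1, other scalings and filters, and each library left out. Groups of 3 were too small for a check of single outlying samples. Replicate libraries of a group differed by more than sampling noise, so none were merged. The chi-square per degree of freedom between pairs of libraries was 3.94 to 4.56 in siCtrl and 10.1 to 23.3 in siBAP18. The siBAP18 libraries thus differed more from one another, whereas the fit used the same dispersion of a gene for both groups. The labels call the 3 libraries of a group biological replicates without saying whether they were separate cultures. The p-values therefore set differences against the spread between these libraries only. The quasi-likelihood test estimates that spread partly from all genes together.

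The 9 genes and the lists were chosen with earlier results of these data known. Genes named outside the 9 were C17orf49, EPGN, in each list up to 4 past both thresholds by smallest adjusted p or otherwise up to 2, and, chosen after their values were seen, the other genes named for overlap, as family members or as markers. A gene that this rule selects is not reported here.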

Additional observations from a re-analysis of the deposited data

How the results depend on the processing

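The counts of the 9 genes past an adjusted p of 0.05 were 4 with every other scaling, with DESeq2, with both count filters and with the replicate block, and AREG, HBEGF and ERBB3 kept their direction and their call under all 16 alternatives. In limma on log2(RPKM + 1) without a filter EGFR was at 0.27 with an adjusted p of 0.0661, and these limma fits called 348 genes of all (log2(RPKM + 1), filtered), 909 (log2(RPKM + 0.1), filtered) and 345 (log2(RPKM + 1), no filter) past both thresholds against 1758; the cause was not tested. Leaving out 1 library at a time gave 4 to 6 of the 9 genes past the adjusted p, with ranges of the log2 fold change of 0.00206 to 0.15 for ERBB2, 0.16 to 0.45 for EREG, 0.0675 to 0.18 for ERRFI1, -0.13 to 0.13 for TGFA and -0.0567 to 0.27 for BTC. ERBB2 passed without siBAP18 replicate 2, and EREG and ERRFI1 passed without siBAP18 replicate 3. TGFA was also below 0 without a filter on low counts (-0.000857), and BTC was below 0 without siCtrl replicate 1; the cause of these turns was not tested. BTC could not be fitted in the filtered RPKM tables, being under their mean of 0.5 RPKM. With the replicate block 1741 genes were called and 4 of the 9 passed; deviations of same-numbered libraries correlated at -0.0166 to 0.0506, so the numbers give no sign of pairing. Taken relative to all genes, list medians kept their sign under all 63 alternatives and moved by over 1.5 times when 1 library was left out as follows: receptor turnover from -0.07 to -0.03 without siCtrl replicate 2, RAS, ERK and AKT genes from -0.10 to -0.06 and the other family members from -0.25 to -0.16 without siBAP18 replicate 3, and the other receptor kinases as given below.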

Other observations

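Receptor tyrosine kinases outside the EGFR family changed in both directions. Of 18 tested of 24 listed, 3 were higher and 7 were lower at an adjusted p below 0.05, beside 24.5% and 25.1% of all genes, with a median log2 fold change of -0.29 beside 0.00102 over all genes; the median lay 0.17 to 0.18 below that of all genes when siCtrl replicate 3, siBAP18 replicate 2 or siBAP18 replicate 3 was left out. NTRK3, the neurotrophin-3 receptor, fell from 22.8 ± 0.546 to 6.33 ± 1.06 CPM (log2 fold change -1.84, adjusted p = 9.64e-14 by edgeR). AXL, the receptor for GAS6, rose from 53.9 ± 0.652 to 120 ± 3.80 CPM (log2 fold change 1.15, adjusted p = 2.82e-13 by edgeR). FGFR2, a fibroblast growth factor receptor, fell from 3.82 ± 0.657 to 1.54 ± 0.193 CPM (log2 fold change -1.29, adjusted p = 6.36e-07 by edgeR).

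The genes whose log2 CPM over the 6 libraries, centred on the mean, lay nearest to that of ERBB3 among 14221 genes were STAM2 and UBXN4 (root mean square difference 0.0284 and 0.0292). For AREG they were CYFIP2 and PRKAB1 (0.0236 and 0.0286). For HBEGF they were AC037459.4 and ZYX (0.0303 and 0.0435). ERBB3, AREG and HBEGF were chosen for this after their values were seen. With 2 groups, such nearness mostly reflects a similar fold change, and shared regulation was not tested. The log2 fold changes were -0.86 for STAM2 and -0.79 for UBXN4. They were 0.70 and 0.69 for CYFIP2 and PRKAB1, and 0.83 and 0.77 for AC037459.4 and ZYX.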
